A study of Mus musculus with 16 samples.

Results

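Gene expression in the brain of mice with 1 mutant huntingtin allele was compared with that of wildtype mice, across all genes that could be named on the arrays. The 8 brain arrays are 8 of the 16 in the series, and the other 8 hold liver of the same animals. Each of 4 male HdhQ111/+ heterozygotes on the C57BL/6J strain, 18 weeks of age, gave brain RNA that was hybridised to 2 arrays with the dyes swapped. The partner on every array was 1 pool of brain RNA from 4 wildtype males of that age. In HdhQ111 mice a long CAG repeat was knocked into the endogenous huntingtin gene (Htt), so the mutant protein is made from its own locus in every cell that normally makes it. The labels give the tissue as brain and name no region. Every value below is a log2 ratio, likely HdhQ111 over wildtype, averaged over the dye-swapped pair of a mouse. A value of 1 is a doubling. The SD is over mice.

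Huntington's disease is caused by expansion of this repeat, and the projection neurons of the striatum are the cells lost first. The striatum sends inhibitory output to other nuclei of the basal ganglia. Its neurons are known by dopamine receptors, opioid and tachykinin peptides and the phosphatase inhibitor DARPP-32. The pituitary, a gland below the hypothalamus, holds separate cells for growth hormone, prolactin, corticotropin and the glycoprotein hormones.

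Of 9026 named genes, 8567 had a value in at least 3 mice and were tested, 7837 of them in all 4, and 459 were not tested. The arrays held values for 19530 to 20319 of the 20794 probes. Of the values in brain, 534 on arrays whose mutant RNA carried Cy5 and 469 on those where it carried Cy3 lay between 16.492 and 16.987 in size, while no other exceeded 8.297, and these were treated as missing. All 534 were positive and all 469 negative. Replicate agreement across probes was low. Pearson's r between the mean values of different mice was -0.113 to 0.072, and between the arrays of a dye-swapped pair -0.188 to -0.0861. Arrays of the same dye orientation from different mice gave 0.0832 to 0.245. The median SD of a gene over mice was 0.278, and its 95% interval reached a median of 0.352 to either side (limma). Ratios carry no level, so neuronal markers could not be checked for abundance. Empty or floor values made up 7.08% of the cells for hepatocyte genes in brain and 0.833% in liver, against 0.368% and 4.78% for astrocyte genes. For synaptic genes they made up 3.21% and 4.29%, and for striatal projection neuron genes 7.03% in both tissues, so this check did not separate the tissues for every list.

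The clearest differences were in hormone genes of the pituitary, which were lower in the HdhQ111 brain samples. Prl, which encodes prolactin, fell by 4.28 on the log2 scale (SD 0.27, n = 3), a 19.5-fold lower ratio. Pomc, the precursor of corticotropin and melanocyte-stimulating hormones, fell by 2.75 (SD 0.52, n = 4), or 6.74-fold. Crybb2, a beta-crystallin best known as a structural protein of the lens, fell by 1.90 (SD 0.34, n = 4), or 3.74-fold. These 3 were the genes past the test, with adjusted p = 0.0055, 0.026 and 0.035 (limma, two-sided, Benjamini-Hochberg over all tested genes). They make up 0.035% of the genes tested, and 0 genes (0%) passed in the higher direction. At an unadjusted p under 0.05 (limma), 162 genes were higher (1.89%) and 174 lower (2.03%).

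Gh, growth hormone, had the lowest mean of all tested genes at -4.35 ± 1.38 (n = 4), and did not pass (adjusted p = 0.143, limma). Its mouse means were -4.86, -2.29, -5.06 and -5.20 for mice 1 to 4. Mouse 2 stood apart from the others, and its 2 arrays read -3.91 and -0.68. Without mouse 2, left out after its value was seen, the mean was -5.04 and the gene passed (adjusted p = 8.8e-05, limma). That was the only 1 of 13 alternatives in which Gh passed, and its adjusted p ran up to 0.784 (limma).

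Prl values on single arrays ran from -3.18 to -4.84 in mice 2, 3 and 4. Their means were -3.97, -4.38 and -4.49. Mouse 1 had 1 usable array, at -4.14, and so did not enter the mean. All 7 measured arrays were thus far below 0. Genes measured in 3 mice had a median SD of 0.537, against 0.270 for those measured in 4, while the fit uses 1 prior spread for both.

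Pomc read -2.92, -1.99, -2.94 and -3.16 in mice 1 to 4. All 8 arrays lay below 0, from -1.27 to -3.80. Crybb2 read -2.19, -1.59, -1.62 and -2.21, with arrays from -0.97 to -2.54. No array of either gene reached 0, the level of the wildtype pool. Cga, the subunit shared by the glycoprotein hormones, read -1.33, -1.13, -1.77 and -2.23, and its mean of -1.62 ± 0.49 did not pass (adjusted p = 0.22, limma). One of its 8 arrays, of mouse 2, was above 0 at 0.24. In all 5 of these genes, mouse 2 was nearest 0 and mouse 4 furthest below it. For Crybb2 the margins were small, -1.59 against -1.62 and -2.21 against -2.19, and Prl had 3 mice.

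**Figure D1:**
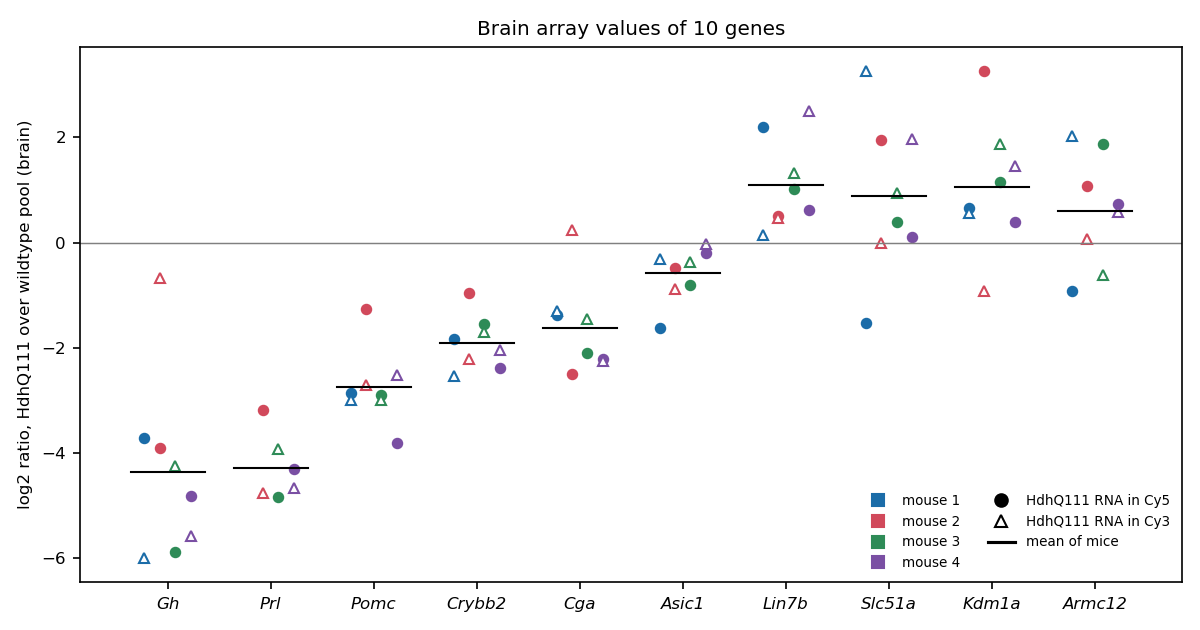
Log2 ratios of HdhQ111 brain over the wildtype pool on each array (y axis) for 10 genes (x axis), with colour for the mouse, filled circles for HdhQ111 RNA in Cy5, open triangles for Cy3 and black bars for the mean over mice. Gh, Prl, Pomc and Crybb2 lie below 0 on every array shown, whereas the arrays of Slc51a, Kdm1a and Armc12 fall on both sides of 0.

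The calls depend on how the ratios are treated. With the floor ratios kept, with the arrays scaled to 1 spread, with the Cy5 arrays alone or without mouse 3, 0 genes passed (limma). Without mouse 2, 3 or 4, Prl had fewer than 3 mice and was not tested. Prl passed in 6 of 9 alternatives, with adjusted p from 0.00092 to 0.166, Pomc in 6 of 13 (0.0013 to 0.267) and Crybb2 in 4 of 13 (0.020 to 0.267). The direction stayed negative for these 3 genes in every one of those alternatives. Prl ran from -4.11 to -4.45, Pomc from -2.62 to -3.01 and Crybb2 from -1.68 to -2.12. Kept floor ratios, robust moderation and 1 probe per gene left their mouse values unchanged, as did leaving out mouse 1 for Prl. For Pomc and Crybb2, so did needing all 4 mice or letting 1 array of a pair be enough. In those alternatives the direction could not change. The single wildtype pool is on every array, so a feature of that pool is shared by all 4 mice, and the spread among wildtype mice does not enter the test. In a whole-tissue sample, fewer cells of a type and less RNA per cell cannot be told apart. The share of pituitary tissue in the dissected samples and in the pool was not tested.

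**Figure D2:**
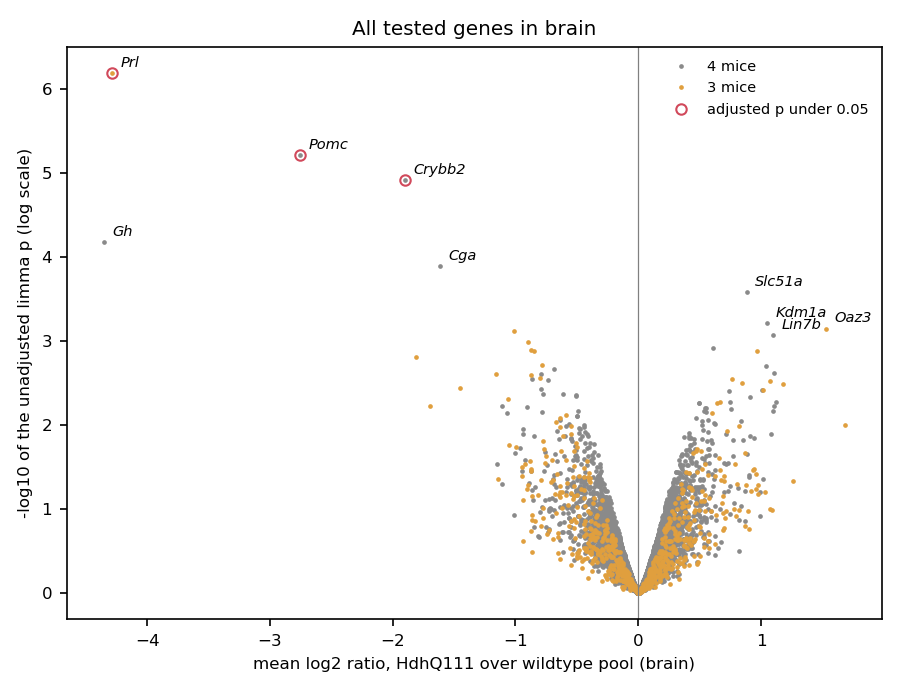
Mean log2 ratio in brain (x axis) against the negative log10 of the unadjusted limma p (y axis), 1 point per tested gene, grey for 4 mice and orange for 3. Prl, Pomc and Crybb2, ringed, are past an adjusted p of 0.05, and Gh and Cga lie on the same side without passing.

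The probes of Cga, Prl and Crybb2 occupy consecutive rows of the value table (15687, 15688 and 15689). The rows on either side were near 0, Tshb at -0.22 ± 0.17 and Crygs at 0.19 ± 0.55 (n = 4 each). Pomc and Gh sit elsewhere, and the rows next to Pomc read -0.19 and -0.017. Names were assigned with an offset of 11 rows between annotation and values. Rows of 240 housekeeping probes had a mean SD percentile of 31.4 at that offset, 49.0 without it, and at lowest 44.5 at any other of the 61 offsets tried. Without the offset the row called Prl here would be named Cdk2ap1. The clone sequences were not used here, so cross-hybridisation between related genes such as Gh and Prl, or among the crystallins, was not tested.

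The pituitary list was chosen with these results known, so its direction is no independent evidence. Of its 10 tested members, 9 were below 0, 2 passed the test and the median was -0.42, against 0.023 over all genes. The thyrotropin subunit gene Tshb read -0.17, 0.006, -0.39 and -0.31 in mice 1 to 4. Chga, a secretory granule protein of many neuroendocrine cells, was at -0.082 ± 0.23 (n = 4). Dlk1 was at -0.30 ± 0.32 (n = 4). The epithelial adhesion gene Epcam ranged from 0.95 in mouse 1 to -2.30 in mouse 4. Nr5a1, a transcription factor of gonadotropes and the ventromedial hypothalamus, was at -0.27 ± 0.58 (n = 4), and its 3 probes disagreed, at -0.072, 0.93 and -1.19. Gata2 alone lay above 0, at 0.54 ± 0.56 (n = 3). The large ratios were those of the 4 hormone genes Gh, Prl, Pomc and Cga. Pomc was placed in this list and not in the hypothalamus or neuropeptide lists. The lowest members of those lists were Nr5a1 at -0.27 and Penk at -0.24. Which cells of the samples gave the Pomc signal was not tested.

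The same hormone genes gave no such ratio in liver. Prl stood at 0.24 ± 0.32 and Pomc at 0.30 ± 0.54 in liver (n = 4 each), and the liver-minus-brain differences were 4.52 (SE 0.22) and 3.05 (SE 0.32). These were the 2 of 8483 genes past the test of that difference (0.0236%), with adjusted p = 0.00012 and 0.014 (limma). Both tissues came from the same mice, and with the mouse as a replicate block the 2 calls remained, at adjusted p = 0.0088 and 0.0026 (limma). Without mouse 3 or without mouse 4, 0 genes passed (limma), with 404 and 449 at an unadjusted p under 0.05. Crybb2 was at -0.20 ± 0.39 in liver, and its difference of 1.70 (SE 0.24) missed the threshold (adjusted p = 0.093, limma). Cga was at 0.050 ± 0.16 in liver, with a difference of 1.67 (SE 0.24, adjusted p = 0.093, limma). Signal over background was not analysed here in either tissue.

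**Figure D3:**
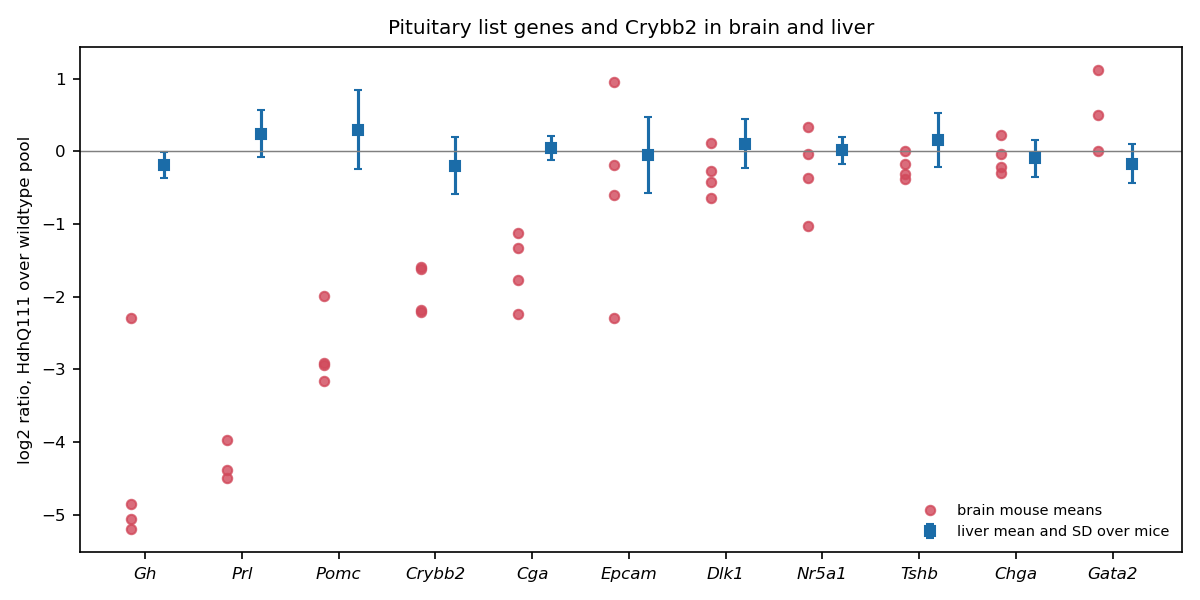
Log2 ratios over the wildtype pool of the same tissue (y axis) for the 10 tested pituitary genes and Crybb2 (x axis). Red points are brain means of single mice, and blue squares with bars are the liver mean and SD over mice, which stay near 0 for Gh, Prl, Pomc and Cga while the brain means lie below -1.

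Promoter windows of the 3 genes past the test are shown with the motif of a pituitary regulator. POU1F1, the POU-homeodomain factor of somatotropes, lactotropes and thyrotropes, is a known regulator of Prl. Within the pituitary, Pomc is made in corticotropes and melanotropes, and Crybb2 is best known from the lens. POU1F1 binds A/T-rich sites with a core often written ATGNATA. The windows span 250 bases before to 50 after the annotated start, from RefSeq on GRCm38.p6, and capitals mark TATNCAT or its reverse complement ATGNATA.
Prl, chr13:27057320-27057619, plus strand: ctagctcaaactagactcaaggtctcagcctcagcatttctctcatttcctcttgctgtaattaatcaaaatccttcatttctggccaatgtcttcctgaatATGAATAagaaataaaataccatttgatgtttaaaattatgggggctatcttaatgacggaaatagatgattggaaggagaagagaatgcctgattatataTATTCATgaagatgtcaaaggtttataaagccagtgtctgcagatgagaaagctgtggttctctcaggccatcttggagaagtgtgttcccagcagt
Pomc, chr12:3954695-3954994, plus strand: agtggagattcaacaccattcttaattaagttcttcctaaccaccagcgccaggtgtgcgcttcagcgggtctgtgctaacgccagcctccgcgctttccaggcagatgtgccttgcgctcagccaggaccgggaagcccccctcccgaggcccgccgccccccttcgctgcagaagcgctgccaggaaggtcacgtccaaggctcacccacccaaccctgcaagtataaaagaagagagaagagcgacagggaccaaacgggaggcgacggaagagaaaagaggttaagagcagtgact
Crybb2, chr5:113070068-113070367, minus strand: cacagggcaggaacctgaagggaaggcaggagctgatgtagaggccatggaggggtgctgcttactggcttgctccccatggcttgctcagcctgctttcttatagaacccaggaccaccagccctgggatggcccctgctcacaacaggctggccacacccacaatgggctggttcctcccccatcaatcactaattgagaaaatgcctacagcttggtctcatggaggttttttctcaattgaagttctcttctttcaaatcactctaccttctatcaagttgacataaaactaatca
Prl held 2 matches on either strand, and Pomc, Crybb2, Cga and Tshb held 0. The window of Gh was not available and was not searched. Pou1f1 itself was not among the tested pituitary genes. The motif was found at least once in 2903 of 32851 windows of this length (8.84%) and at least 2 times in 494 (1.504%). A match describes these letters and is not a shown binding site.

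Outside the pituitary genes, the higher direction held no gene past the test. Slc51a, a subunit of the organic solute transporter, had the smallest p among higher genes and was at 0.88 ± 0.16 (n = 4, adjusted p = 0.37, limma). Its mouse means were 0.86, 0.97, 0.66 and 1.03, but its single arrays ran from -1.54 to 3.25. Kdm1a, the lysine demethylase LSD1, was at 1.05 ± 0.38 (n = 4), and 1 of its arrays read -0.93. Armc12 had mouse means of 0.55, 0.58, 0.63 and 0.66 from arrays between -0.92 and 2.02. The close mouse means of Slc51a and Armc12 thus came from dye-swapped arrays that differed widely.

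Lin7b, a scaffold protein of the synapse, was above 0 on all 8 arrays. It read 1.18, 0.48, 1.17 and 1.56 in mice 1 to 4, a mean of 1.10 ± 0.45 (adjusted p = 0.73, limma). Whether such agreement exceeds chance was not tested. Of 7837 genes with 4 mice, 14 had all 8 arrays above 0 (0.179%) and 16 had all 8 below (0.204%). Next among those above were Tmem117 at 0.62 ± 0.38 and Zfp954 at 0.62 ± 0.65. Atxn7l1 was at 0.55 ± 0.27, and Dhx30, an RNA helicase, at 0.47 ± 0.18. Slc6a13, a GABA and taurine transporter of the meninges, was at 0.42 ± 0.28, and Zeb1, a zinc finger repressor, at 0.42 ± 0.25. Rfesd, Clba1 and Rrad followed between 0.31 and 0.40. Dhx30 had 2 probes that differed, at 0.079 and 1.03.

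Among genes below 0 on all 8 arrays, Gh, Pomc and Crybb2 were followed by Asic1, a proton-gated sodium channel of neurons. Asic1 read -0.97, -0.68, -0.59 and -0.11, with a mean of -0.59 ± 0.36 (adjusted p = 0.999, limma). Adhfe1, a mitochondrial dehydrogenase, was at -0.50 ± 0.40 and the phosphatase Dusp12 at -0.45 ± 0.40. The collagen chain Col5a2 was at -0.42 ± 0.16. Prkce, a protein kinase C, was at -0.39 ± 0.15, and Pkig, an inhibitor of protein kinase A, at -0.37 ± 0.18. Slco5a1 was the tightest of them, at -0.38, -0.33, -0.44 and -0.29 in mice 1 to 4. None of these passed the adjusted test, and all have n = 4.

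Several of the smallest p-values belonged to genes seen in 3 mice. Oaz3, an antizyme of the testis, was at 1.53 ± 0.51 and Vamp8, a SNARE of secretory granules, at -1.81 ± 0.80. Sos1, a Ras exchange factor, was at 1.18 ± 0.55, and the cation channel Trpv4 at 1.07 ± 0.46. Aste1 was at -1.02 ± 0.18, Nln, the peptidase neurolysin, at -0.90 ± 0.10 and Clec1b, a platelet receptor, at -0.79 ± 0.09. Their adjusted p were 0.72 to 0.92 (limma). The close mouse means of Aste1, Nln and Clec1b came from dye-swapped arrays that differed. The Cy5 and Cy3 arrays read -1.94 and 0.14 for Aste1 in mouse 4. In mouse 3 they read -1.615 and 0.038 for Nln, and 0.306 and -1.70 for Clec1b. With 1 array of a pair enough, the means of Aste1, Nln and Clec1b were -0.58, -0.57 and -1.46.

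Genes of striatal projection neurons held no member past the test. Of 21 tested members, 9 were above and 12 below 0, and the median was -0.041. At an unadjusted p under 0.05 (limma) there were 0 members, against 1.89% of all genes higher and 2.03% lower. Penk, the enkephalin precursor of the indirect pathway, read -0.33, -0.20, -0.23 and -0.20, a mean of -0.24 ± 0.06 with a 95% interval from -0.51 to 0.028. Its 4 Cy5 arrays were above 0 and its 4 Cy3 arrays below, with means of 0.20 and -0.68. Drd2, the dopamine receptor of those neurons, read 0.51, 0.33, -0.21 and -0.61. Ppp1r1b, which encodes DARPP-32, was at -0.066 ± 0.27 with an interval from -0.41 to 0.28. Pde10a, the striatal phosphodiesterase, was at -0.041 ± 0.92, and 1 of its 2 probes scattered far more than the other (SD 1.97 and 0.17). Rgs9, a regulator of G protein signalling, read -0.10, -0.14, -0.12 and -0.26. Actn2, an actin crosslinker, read -0.42, -0.093, -0.80 and -0.15. Rgs9 and Actn2 were the 2 members with the 4 mice and both dye means below 0, and were picked on that basis after the values were seen. Over all genes, 194 of 7837 met that condition below 0 (2.48%) and 250 above (3.19%). With a median interval of 0.352 to either side, a change smaller than that in a typical gene lies within its interval. Larger means also missed the adjusted test, such as Kdm1a at 1.05 and Cga at -1.62 (adjusted p = 0.72 and 0.22, limma).

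Huntingtin itself had no named row and is not analysed here. The list of genes that bind or process huntingtin had 18 of 25 members above 0 and a median of 0.068. It had 0 at an unadjusted p under 0.05 (limma), against 1.89% of all genes higher and 2.03% lower. Hap1, a partner in vesicle transport, was at 0.13 ± 0.37, Hip1, a clathrin adaptor, at 0.10 ± 0.17 and Rest, the repressor of neuronal genes, at 0.21 ± 0.18 (n = 4 each). Genes on either side of Htt on its chromosome, 35 tested, had a median of -0.031 with 15 above 0. Slc5a1, a glucose transporter, was the lowest of them at -0.96 ± 0.85 and Fam53a stood at -0.58 ± 0.60. The highest was Ccdc96 at 0.34. Repair genes that act on repeats had a median of 0.023 over 27 members. The mismatch repair gene Msh3 was at -0.10 ± 0.31, the glycosylase gene Ogg1 at 0.97 ± 1.06 and the ligase gene Lig3 at -0.37 ± 0.28.

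The list medians followed the mice. Over all genes, mice 1 to 4 had medians of -0.10, 0.0080, 0.15 and 0.039, and mouse 3 was highest in 41 of the 55 lists. Genes of oxidative phosphorylation, the respiratory chain of mitochondria, had 62 of 72 members above 0, against 56.7% of all genes, and a median of 0.097. Their mouse medians were -0.12, 0.071, 0.36 and 0.11. Without mouse 3 the median was 0.018, and with the Cy5 or Cy3 arrays alone it was 0.28 or -0.086, where all genes gave 0.096 and -0.054. Cytosolic ribosomal protein genes had 47 of 58 above 0 and a median of 0.096, which was 0.30 on the Cy5 and -0.14 on the Cy3 arrays. The proteasome had 29 of 39 above 0 and a median of 0.090, which was -0.013 without mouse 3. No member of the respiratory chain or ribosomal list reached an unadjusted p under 0.05 (limma), against 1.89% of all genes higher and 2.03% lower. The dye and the mouse move with these medians, and their part was not tested.

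**Figure D4:**
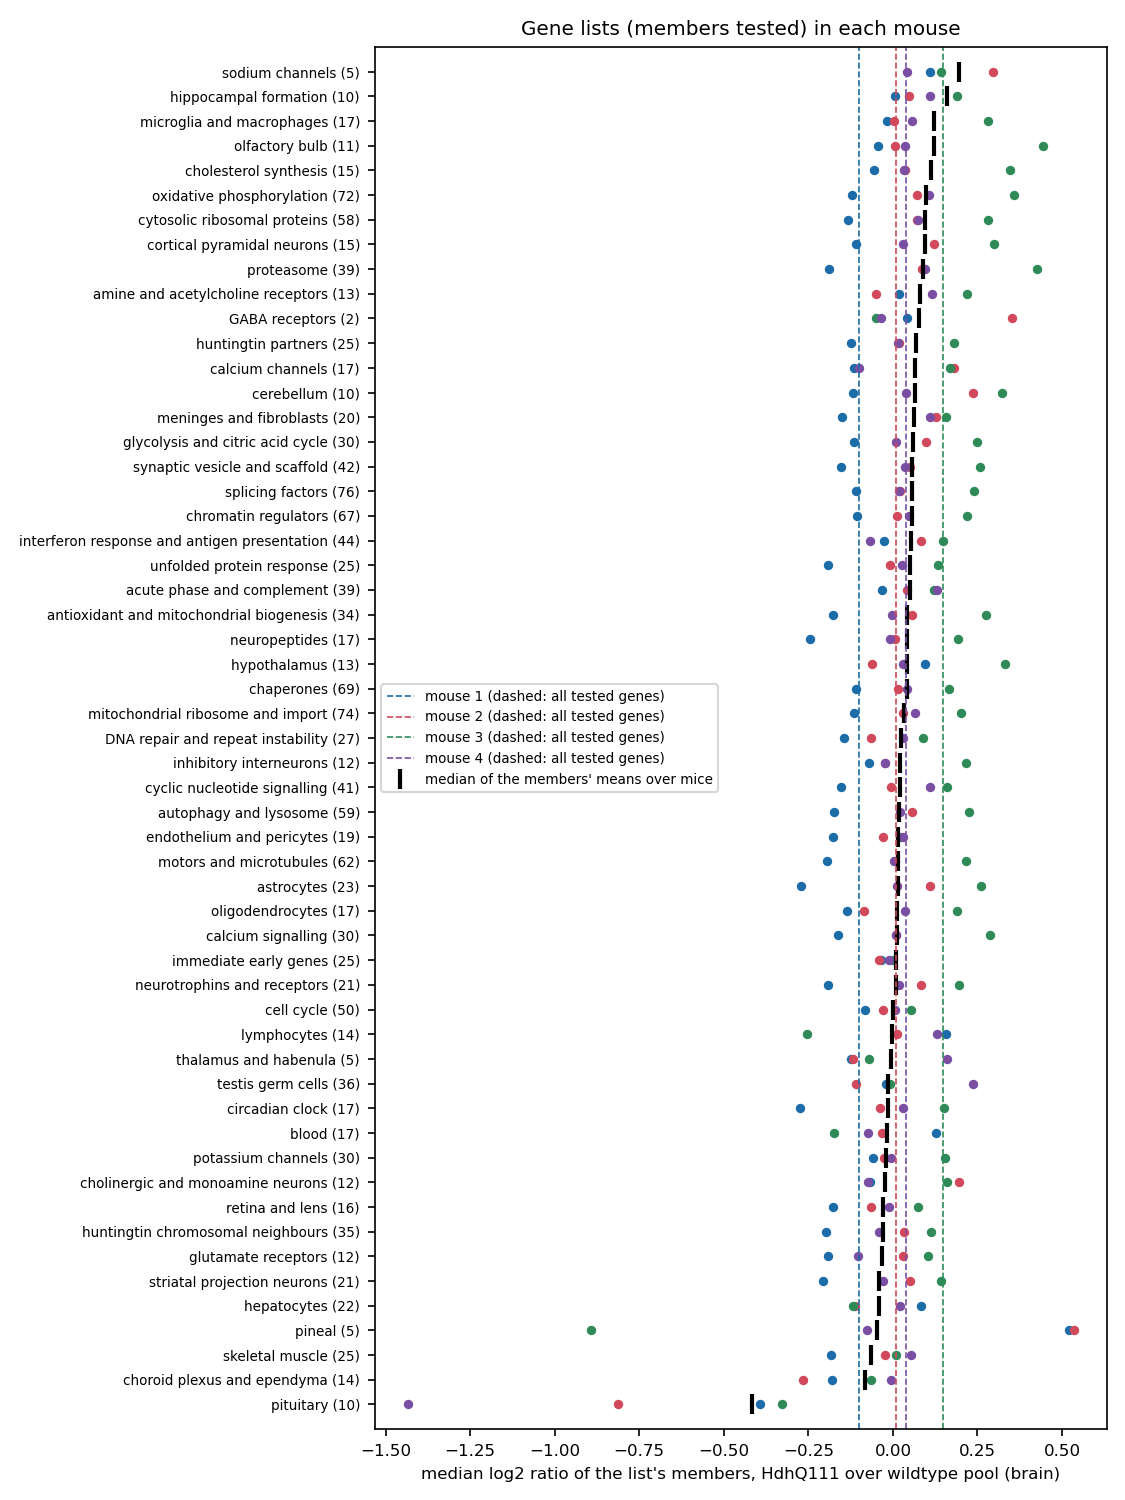
Median log2 ratio in brain (x axis) of the tested members of 55 gene lists (y axis, number tested in brackets), with a coloured point per mouse, a black mark for the median of the members' means and dashed lines for each mouse's median over all genes. Most lists lie near the dashed lines, and the pituitary list lies furthest below 0.

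Other neuronal lists held no gene past the test. Cortical pyramidal neuron genes had 14 of 15 above 0 and a median of 0.095, with 0.0052 when mouse 3 was left out. The hippocampal list had a median of 0.16 over 10 genes, and its median lay above the all-gene value in all 4 mice. The olfactory bulb list had 10 of 11 above 0 and a median of 0.12, and the sodium channel list a median of 0.20 over 5 genes, among them Asic1 below 0. Synaptic vesicle and scaffold genes had a median of 0.057 over 42 members, glutamate receptors -0.033 over 12 and potassium channels -0.020 over 30. Chrna5, a nicotinic receptor subunit, read 0.072, 0.50, 1.24 and 1.60. Immediate early genes, which neurons switch on with activity, had 13 of 25 above 0 and a median of 0.0094. At an unadjusted p under 0.05 (limma), Ier2 was higher, at 0.35 ± 0.28, and Egr1 and Fosl1 lower. Of all genes, 1.89% were higher and 2.03% lower at that threshold. Fosl1 was at -0.31 ± 0.17, and Egr1 read -0.41, -0.33, -0.29 and -0.81, a mean of -0.46 ± 0.24 with an unadjusted p of 0.013 (limma). The 2 arrays of Egr1 lay on opposite sides of 0 in mice 1, 2 and 3. Its means were -0.71 on the Cy5 and -0.21 on the Cy3 arrays. Fos was at -0.29 ± 0.47, Atf3 was the highest of the list at 0.39 ± 0.86, and Per2, a clock gene, at -0.33 ± 0.20.

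Glial and immune lists held no member past the test. Astrocyte markers had 12 of 23 above 0 and a median of 0.014. Gfap, the filament protein of reactive astrocytes, read -0.22, 0.48, 0.26 and -0.47, while S100b read 0.36, 0.69, 1.35 and 0.58, with means of 1.36 on the Cy5 and 0.14 on the Cy3 arrays. Oligodendrocyte markers had a median of 0.013 over 17 genes, and Mbp, the myelin basic protein, was at -0.041 ± 0.07. Olig2, the lineage transcription factor, was at 0.41 ± 0.23. Microglial and macrophage markers had 12 of 17 above 0 and a median of 0.12. C1qa, a complement subunit made by microglia, read 0.49, 0.32, 0.37 and 0.11, and Aif1, or IBA1, -0.019, -0.11, 0.095 and -0.017. In the interferon and antigen presentation list, 27 of 44 tested members were above 0 and 17 below. At an unadjusted p under 0.05 (limma), 4 were higher and 1 lower, against 1.89% and 2.03% of all genes. The higher members were the class I gene H2-K1 at 0.71 ± 0.52, Ifi27l2a at 0.51 ± 0.22, Gbp8 at 0.48 ± 0.31 and the regulator Irf7 at 0.91 ± 0.98. H2-K1 had means of 0.053 on the Cy5 and 1.375 on the Cy3 arrays, and its arrays of mouse 1 read -1.434 and 3.934. Ifi35 was the lower member, at -0.43 ± 0.36.

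Among the remaining lists, cholesterol synthesis had 14 of 15 above 0 and a median of 0.11, with 0.025 when mouse 3 was left out. Ebp, the sterol isomerase, read 0.0015, 0.83, 1.02 and 0.47. Chromatin regulators had 4 members higher and 2 lower at an unadjusted p under 0.05 (limma) of 67 tested, against 1.89% and 2.03% of all genes. Kmt5b, a histone H4 methyltransferase, was at 0.55 ± 0.25 and Rcor3, a corepressor, at -0.48 ± 0.24. Their means were 1.04 and -0.71 on the Cy5 arrays, and 0.0525 and -0.25 on the Cy3 arrays. The mitochondrial ribosome and import list held Mrps7 at -0.51 ± 0.14 and Mrps11 at 0.40 ± 0.28. Mrps7 and Mrps11 had means of -0.92 and 0.019 on the Cy5 arrays, and -0.091 and 0.785 on the Cy3 arrays. Choroid plexus and ependymal genes had a median of -0.083 over 14, which lay below the all-gene median in all 4 mice. The same held for the DNA repair, unfolded protein response, endothelium and pericyte, pituitary, and retina and lens lists. In the list of retina and lens genes, Crybb2 was the member past the test, and the other 15 ran from -0.43 for Cryba1 (n = 3) to 0.41 ± 0.15 for Crygd (n = 4). None of those 15 passed the adjusted test.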

How the data were processed

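The authors deposited log2 ratios for 20794 probes per array. Base 2 was assumed. Not given in the sources used here are the scanner, background correction and normalization. The sign is likely HdhQ111 over wildtype, but no header states it. Per the labels' protocols, total RNA was labelled indirectly with Cy3 or Cy5.

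Values over 10 in size were set to missing. Both arrays of a dye-swapped pair were averaged, then the probes of a gene. Names came from the platform table with a row offset of 11 (12760 rows, 9026 genes), all matched to RefSeq through Entrez numbers. Means of at least 3 mice were tested against 0 with limma 3.58.1 in R 4.3.3 (lmFit, eBayes, Benjamini-Hochberg, 0.05), which was tested on simulated data. The tissue difference was fitted over the 4 and 4 mouse values. Brain and liver carry the same mouse identities in the labels, which is where the pairing comes from, and deviations of a mouse in both tissues correlated by 0.031, -0.012, 0.039 and 0.033 (Pearson's r across genes).

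The wildtype pool was 1 control RNA. The number of arrays limits the precision, and 4 mice cannot reach a two-sided exact sign-flip p under 0.125. Members, lists and tests were chosen with earlier results of these data known. Genes named were the 12 smallest p in each direction, the 10 highest and 10 lowest means among genes with all 8 arrays on one side of 0, up to 3 list members per direction with all 8 arrays on one side, pituitary and striatal genes, and the 5 smallest p in the tissue difference. The text gives examples from these. Other list members were picked after their values were seen, either as having the 4 mice and both dye means on one side of 0 or for their known role. Alternatives covered centring, scaling, floor ratios, single dyes, left-out mice, 1 array per pair, all 4 mice, robust moderation, 1 probe per gene, no offset and the mouse block.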

Additional observations from a re-analysis of the deposited data

Results flagged for a closer look

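Prl and Pomc differed between liver and brain by 4.52 and 3.05 in the limma test of the difference. Among 106 named genes with 4 mice, 8 had 1 mouse far from the others by Dixon's ratio at its 95% critical value, and chance alone gives about 1 in 20 such groups. The distant values were -2.29 for Gh and 1.25 for Il2rb and 0.96 for Cfi in mouse 2. They were -0.17 for Col5a2 and -0.89 for Derl3 in mouse 1, and 0.34 for Sf3b3, 1.03 for Gpc5 and 1.53 for Mb in mouse 3. Of 55 list medians, 3 were marked the same way. Mouse 3 lay high for the olfactory bulb list at 0.44 and for inhibitory interneurons at 0.22, and mouse 1 lay low for meninges and fibroblasts at -0.15.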

How the results depend on the processing

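In the reported setting 3 genes passed. The number was 1 with centred arrays, with 1 array of a pair enough and with names without the offset, 0 with floor ratios kept, with Cy5 arrays alone and with arrays centred and scaled, and 0 to 3 when 1 mouse was left out. Where 0 passed, the genes with an unadjusted p under 0.05 (limma) numbered 269 (floor ratios), 1057 (Cy5), 376 (scaled) and 333 (without mouse 3). Prl lost its call with floor ratios kept (-4.28), Cy5 arrays (-4.11) and scaling (-4.45). With 1 mouse left out it could be tested only without mouse 1, which had not entered its mean, and it stayed at -4.28. Pomc lost it with centring (-2.77), floor ratios or 1 array enough (-2.75 each), Cy5 arrays (-2.71) and scaling (-2.74), and ran from -3.01 to -2.62 with 1 mouse left out. Crybb2 lost it with centring (-1.92), floor ratios or 1 array enough (-1.90 each), Cy5 arrays (-1.68), Cy3 arrays (-2.12) and scaling (-1.92), and ran from -2.01 to -1.80 with 1 mouse left out. With floor ratios kept, the mouse values of these 3 genes were unchanged, as were those of Pomc and Crybb2 with 1 array enough. There the adjusted p moved only through the other genes, which set the prior spread and the adjustment. The cause of the other losses was not tested, except that fewer mice enter where one is left out.

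Unadjusted counts rose to 602 higher and 455 lower on Cy5 arrays and to 449 and 709 on Cy3 arrays. Genes with every array above 0 numbered 1386 (Cy5) and 589 (Cy3), or 52 to 205 with a mouse left out, and below 0 they numbered 556, 1341 and 46 to 107. Fewer arrays have to agree in those settings. At the probe level, 0 of 19118 (0%) passed in the reported setting, where 794 had an unadjusted p under 0.05 (limma), 1 with 1 array enough and 0 to 2 with a mouse left out. The liver-minus-brain count of 2 was 2 in the paired fit (replicate block), 1 with floor ratios or with all 4 mice needed, and 0 to 1 with a mouse left out.

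Reversals were limited to genes that had not passed. On Cy3 arrays these were Esrp1 (-0.83), Drd2 (-0.15), Pde10a (0.37), Ntrk2 (-0.35), Msh3 (0.080), Gfap (-0.12), Aif1 (0.32), Gad1 (0.36) and Nr5a1 (0.042). On Cy5 arrays they were Penk (0.20), Ppp1r1b (0.12), Mbp (0.30), Rest (-0.11) and Gata2 (-0.094). Centring turned Drd2 (-0.0095), Ntrk2 (-0.00056) and Gfap (-0.00038), and scaling turned Drd2 (-0.015), Pde10a (0.056), Ntrk2 (-0.016), Gfap (-0.027) and Aif1 (0.0032). With 1 probe per gene, Flt1 (-0.073), Abra (0.093), Arg1 (-0.032), Cdc14b (0.33), Ntrk2 (-0.11) and Gfap (-0.040) turned. With 1 array enough, Esrp1 (-0.88), Akr1cl (0.037) and Cdc14b (0.0033) turned, and with floor ratios kept Ceacam2 (1.45). With 1 mouse left out, the ranges were -0.17 to 0.21 for Drd2, -0.32 to 0.37 for Pde10a, -0.18 to 0.037 for Ppp1r1b, -0.024 to 0.066 for Ntrk2, -0.027 to 0.26 for Hap1, -0.21 to 0.017 for Msh3, -0.14 to 0.17 for Gfap, -0.048 to 0.020 for Aif1, -0.087 to 0.0011 for Gad1 and -1.03 to 0.059 for Epcam. The cause was not tested. List medians moved by more than their SD over mice in 45 of the comparisons and stayed within it in 725. Of the moves, 21 were on Cy3 arrays alone and 17 on Cy5 arrays alone, out of 55 lists in each. The 725 include 55 from robust moderation, which leaves a mean unchanged. Without the offset, 64 of 115 named genes had the sign given here.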
